A study of Rattus norvegicus with 2 samples.

Results

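Nuclear receptors are transcription factors that bind a small lipophilic ligand, such as a steroid, thyroid hormone or a retinoid, and then act on genes that carry their response element. Several of them, together with factors of the Creb, Mef2, POU, Sox, forkhead, Klf, Cebp, Stat and basic helix-loop-helix families, shape gene expression in hippocampal neurons. Their proteins act in the nucleus, whereas mRNA can also lie in dendrites and nerve endings, and the comparison here asks in which of the 2 RNA sources each factor's mRNA gave more signal. The genes were taken from the platform annotation as every probe set with a single symbol beginning Nr followed by a digit, Ppar, Rar, Rxr, Esr, Pou, Mef2, Sox, Hes, Neurod, Creb, Stat followed by a digit, Fox, Klf or Cebp, plus Thra, Thrb, Id1, Id2 and Id3. Nr4a1 was left out. This gave 131 probe sets of 89 genes, out of 4736 genes with a single symbol on the array. All 89 are DNA-binding factors or close relatives of them, since no other symbol was caught by the prefixes.

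Both RNA samples were hippocampal, from rats of the Sprague Dawley strain aged 70 postnatal days, with no treatment and no genetic change in the labels. One source was synaptosomes, pinched-off nerve endings with attached postsynaptic membrane that were prepared biochemically, and the other was the total hippocampus. Each was hybridised to 1 Affymetrix array, and the number of animals behind either sample is not in the labels. With 1 array per group there is no replicate spread and no test, so every difference below is a description of these 2 arrays. Synaptosomes are a fraction and not whole cells, so a ratio compares the signal of that fraction with the signal of the tissue. It measures neither RNA per cell nor the number of cells of a type, and these cannot be told apart here.

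Signals are the authors' deposited intensities in arbitrary units, with nearly equal trimmed means on the 2 arrays. Signals under a floor of 846, the median of all non-control signals, were set to it. Log2 ratios are synaptosomes minus total hippocampus after subtraction of the median of all filtered probe sets, -0.17, so a printed fold is the plain signal quotient times 1.13 for a gene higher in synaptosomes and divided by it for a lower one. A fold with 1 array at the floor is written "at least" and holds only if both signals are taken at face value. Signals can be negative, as differences between matched and mismatched probes would be, but neither a label nor a file header states how they were computed. The 95th percentile of the size of the negative signals, 2913 for the synaptosome and 5280 for the hippocampus array, serves below as the noise spread, and a signal above it is called clear. The arrays therefore differ in how low a signal can be read.

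Of the 89 genes, 42 had a probe set whose mean log2 level reached the median of all probe sets, which is 47.2% against 57.7% of all genes with 1 symbol. Another 36 genes showed no probe set above the floor on either array, and 11 lay above the floor on 1 or both arrays but below the level filter. Synaptosomes gave at least 2-fold more signal for 7 of the 42 genes and at least 2-fold less for 6, while 29 lay between. These shares of 16.7% and 14.3% stand beside 19.1% and 14.3% of all 2735 filtered genes, so neither is a result about these families. Their median log2 ratio was 0.17, against 0.00 for all filtered genes. The SD of the ratio between probe sets of a single gene was 0.90 over the 658 genes with several filtered probe sets. It is a spread between probe designs on the same 2 arrays and does not measure replicate spread.

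The 7 higher genes were Mef2d, Foxm1, Rxrg, Pou3f3, Thra, Hes1 and Nr2f1. The 6 lower genes were Foxd3, Klf9, Cebpd, Rara, Esr2 and Rxrb. On 3 of the higher genes, Rxrg, Pou3f3 and Hes1, the hippocampus signal was under the floor, and for Foxd3 the synaptosome signal was. A signal clear of the noise spread on at least 1 array was found for 17 of the 42 genes. Of these 17, 4 were at least 2-fold higher (Mef2d, Foxm1, Thra and Nr2f1) and 3 at least 2-fold lower (Foxd3, Klf9 and Rara). Mef2d, Foxm1 and Nr2f1 were clear on the synaptosome array only, and Foxd3 on the hippocampus array only. Among all 1387 genes with such a signal, 24.4% were higher and 9.16% lower, against 19.1% and 14.3% of all filtered genes. The noise spread was smaller on the synaptosome array, so a gene could enter this set more easily through a high synaptosome signal. Counts and shares in this set therefore do not weigh the 2 directions evenly. Thra, Klf9 and Rara were the only genes of the 13 whose signals were clear on both arrays.

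**Figure D1:**
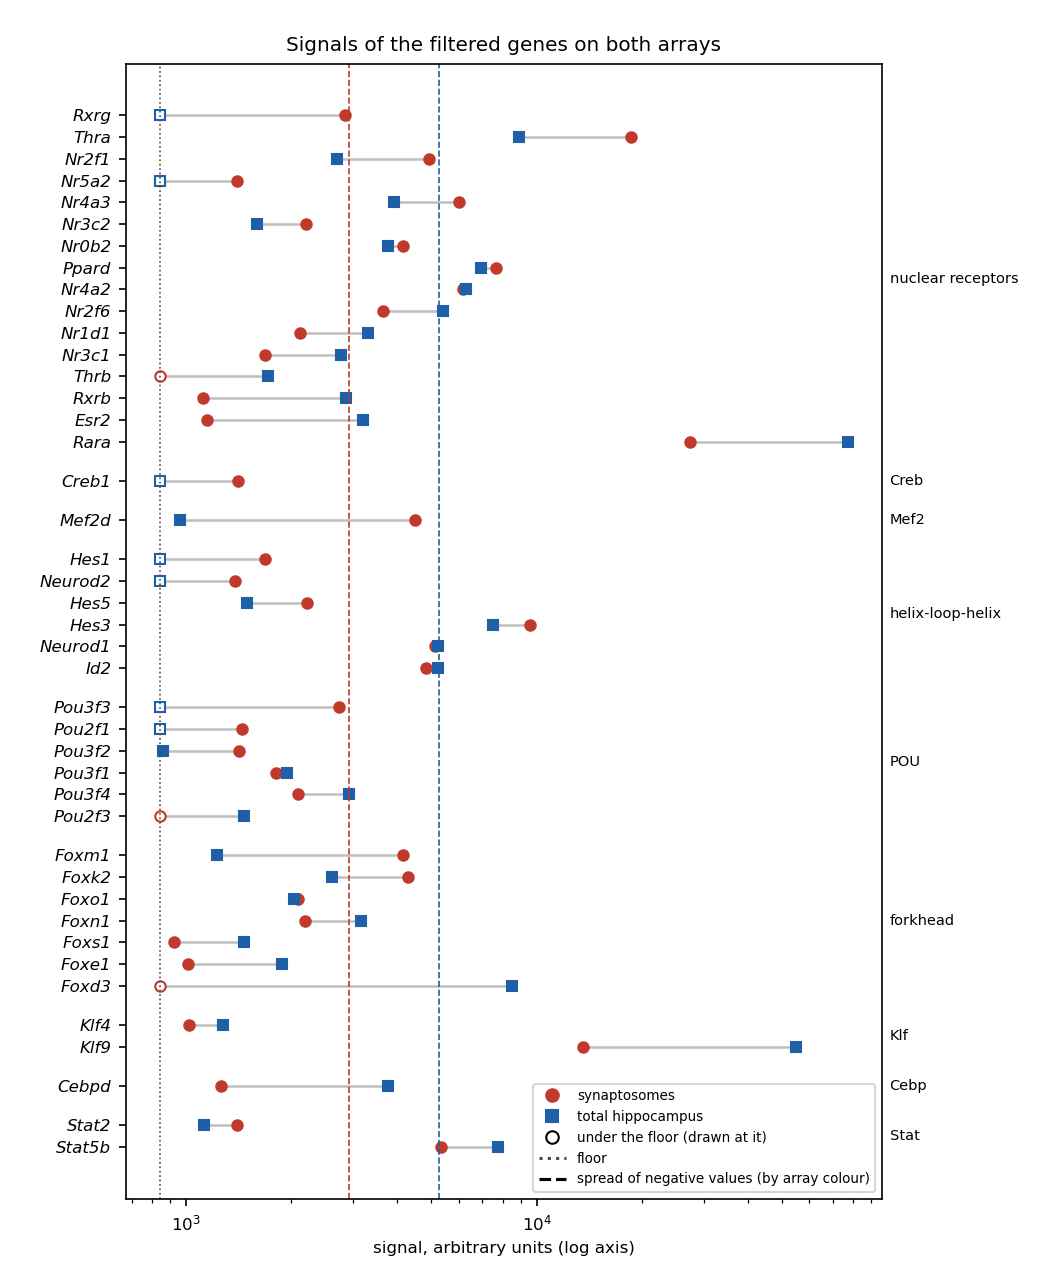
Signal of each of the 42 filtered genes on the synaptosome array (circles) and the total hippocampus array (squares), on a log axis in arbitrary units, with the brightest probe set of each gene and genes grouped by family. Open symbols lie under the floor of 846 and are drawn at it, and dashed lines mark the noise spreads of 2913 and 5280; most genes lie left of these lines, and Thra, Klf9 and Rara stand clear of them on both arrays with separated signals.

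The upstream sequence of 2 of these 13 genes is given as reference. Each encodes a factor that binds a short box known for its family, as others of the 13 do, and each sequence held a match to its box. Hes1 is a repressor that binds the N box CACNAG, also in its own promoter, and Klf9 is a zinc finger factor of the family that binds the GT box CACCC. RefSeq windows of assembly GRCr8 were matched for 68 of the 89 genes, and the 250 bases before the annotated start are printed with matches on either strand in capitals.
Hes1 (chr11:84213046-84213295, minus strand): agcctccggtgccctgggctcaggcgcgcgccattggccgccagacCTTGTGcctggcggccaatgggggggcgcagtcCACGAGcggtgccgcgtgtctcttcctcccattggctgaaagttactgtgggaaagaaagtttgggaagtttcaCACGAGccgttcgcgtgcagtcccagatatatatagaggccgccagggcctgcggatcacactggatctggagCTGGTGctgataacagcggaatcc
Klf9 (chr1:230126396-230126645, plus strand): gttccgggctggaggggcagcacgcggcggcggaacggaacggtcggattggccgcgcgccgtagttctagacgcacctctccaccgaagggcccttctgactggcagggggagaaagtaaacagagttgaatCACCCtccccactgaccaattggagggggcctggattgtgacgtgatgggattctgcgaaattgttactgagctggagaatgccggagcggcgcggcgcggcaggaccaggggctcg
The Hes1 window held 4 matches to CACNAG, a number reached by 0.197% of the 33469 RefSeq windows of this length, and 37.2% of them held at least 1. The Klf9 window held 1 match to CACCC, as did 49.2% of all windows at least once. Such matches describe letters in the genome, and the arrays did not measure binding or transcription.

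Thyroid hormone receptors are nuclear receptors for triiodothyronine, and Thra encodes the alpha receptor. Its probe set M31174_at read 18631 in synaptosomes against 8897 in total hippocampal RNA, which is 2.36-fold higher. A probe set on another source sequence, X12744_at, read 6886 and 3002, or 2.58-fold higher. Thra was the only gene of the 42 with several filtered probe sets that were all at least 2-fold higher, although a further design on M31174 lay at the floor on both arrays. The Thra and Nr1d1 genes are known to overlap at their ends on opposite strands, and both Nr1d1 probe sets are given further on. Thrb, the beta receptor, read 585 in synaptosomes and 1712 in the hippocampus, a log2 ratio of at most -0.85, with neither signal clear of the noise. The difference between Thra and Thrb could not be tested.

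Retinoid receptors divided. Rara, the alpha retinoic acid receptor, had the probe set U15211_at at 27402 in synaptosomes and 77076 in the hippocampus, or 2.50-fold lower in synaptosomes. A companion design on that source sequence, U15211_g_at, read -444 and 3395, at least 3.57-fold lower, with neither signal clear. A Rara design on a different source sequence stayed under the floor throughout. Rxrb, a retinoid X receptor that pairs with thyroid, retinoic acid and other receptors, read 1122 and 2865, or 2.27-fold lower. Rxrg, its gamma relative, read 2839 and 696 and was at least 3.78-fold higher, but its other probe sets lay at the floor on both arrays. No Rxrb or Rxrg signal was clear of the noise. With the floor at percentile 75 of all signals neither passed 2-fold, as Rxrg fell to 0.10 and Rxrb turned to 0.049 on the log2 scale. Rarb and Rxra gave no signal above the floor.

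Hippocampal neurons are known for carrying both corticosteroid receptors. Nr3c2, the mineralocorticoid receptor, read 2198 and 1593 with M36074_g_at, a log2 ratio of 0.63. Its other design on that sequence, M36074_at, read 2516 and 740, at least 3.35-fold higher in synaptosomes. Nr3c1, the glucocorticoid receptor, read 1684 and 2777 with its filtered probe set, a log2 ratio of -0.55, and 621 and 1263 with M14053_at, which did not pass the filter. The mineralocorticoid readings were thus above and the glucocorticoid readings below 0 on the ratio scale. All of them lay within the noise spread of their arrays. Esr2, the beta estrogen receptor, read 1147 in synaptosomes and 3207 in the hippocampus, or 2.48-fold lower, and its other design lay at the floor, as Esr1 did. Neither Esr2 signal was clear, and the higher floor brought the Esr2 ratio to -0.11.

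Orphan receptors, for which a physiological ligand is lacking or was found late, had ratios on both sides of 0. Nr2f1, or COUP-TFI, a factor of cortical patterning, read 4945 and 2691 with U10995_g_at, 2.07-fold higher, and 1156 and 1166 with U10995_at, a log2 ratio of 0.16. The quotient of the brighter signals without the centring is 1.84, so its 2-fold call ends without centring. The Nr2f1 log2 ratio was also short of 2-fold with the higher floor, at 0.90, and with quantile normalization, at 0.93. With the mean over probe sets it was 0.60, and without suffixed probe sets 0.16. The call held in 4 of the 9 other settings. Nr4a2, or Nurr1, a factor of dopamine neurons that is also induced by activity, read 6151 and 6282 with its brighter probe set and 1269 and 1349 with the other, and these log2 ratios of 0.14 and 0.08 changed sign to -0.03 and -0.09 without centring. Nr4a3, its activity-induced relative, read 6015 and 3921 with 1 probe set and 1494 and 721 with another, with log2 ratios of 0.79 and at least 0.99. Nr1d1, the clock repressor Rev-erb alpha, read 2113 and 3309 with its brighter probe set and 2131 and 2150 with the other, with ratios of -0.48 and 0.16. Nr2f6 had a ratio of -0.40 on signals of 3660 and 5421, both clear. Nr0b2, a corepressor without a DNA-binding domain, read 4169 and 3763, and Nr5a2 read 1403 and -1157. Ppard, the fatty acid receptor of the delta type, had clear signals of 7665 and 6951 with U40064_at and read 4395 and 6853 with rc_AI230294_at, with ratios of 0.31 and -0.47. Over the whole receptor family, 16 of 30 genes passed the filter, with 3 higher, 3 lower and 10 between, and a median of 0.23.

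**Figure D2:**
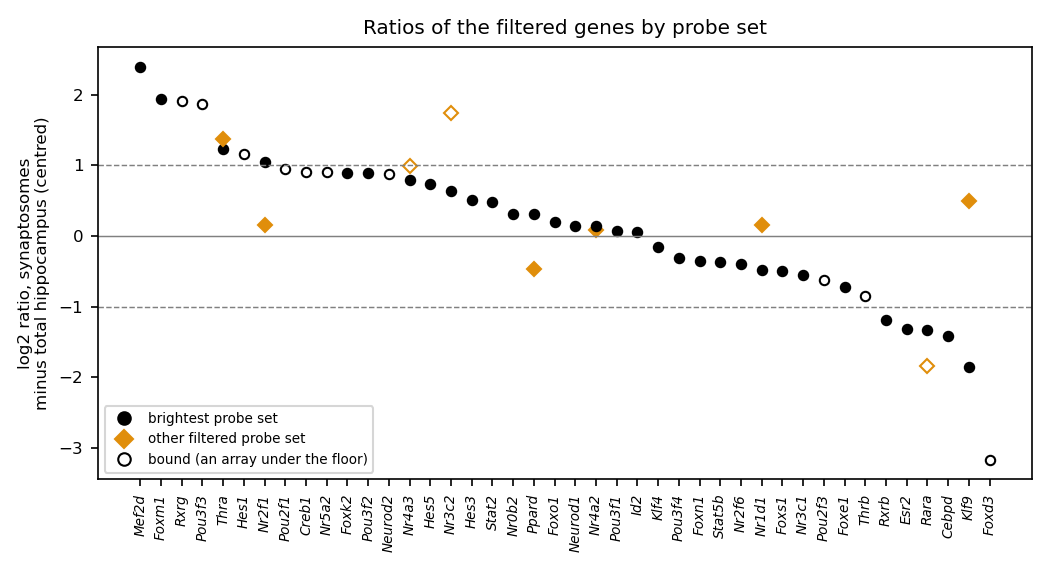
Centred log2 ratio, synaptosomes minus total hippocampus, of every filtered probe set of the 42 genes, ordered by the brightest probe set (circles), with other filtered probe sets as diamonds and bounds as open symbols. Dashed lines mark 2-fold; the probe sets of Thra lie together above the upper line, those of Rara below the lower line, and those of Klf9 on either side of 0.

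Creb1 and Mef2d are factors through which synaptic activity acts on neuronal genes. Mef2d, a MADS-box factor, read 4513 in synaptosomes and 965 in the hippocampus, 5.26-fold higher and the highest ratio of the 42 genes. Its synaptosome signal was clear, but it was smaller than the noise spread of the hippocampus array. Its hippocampus signal was close to the floor. Neither the size nor the direction of the Mef2d difference is therefore settled. With the higher floor its log2 ratio was 0.77, short of 2-fold. The single Creb1 probe set, X14788_s_at, read 1408 and -1160, a log2 ratio of at least 0.91, with neither signal clear.

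Helix-loop-helix factors include Neurod1 and Neurod2, which promote the neuronal fate, the Hes repressors of the Notch pathway, and the Id proteins, which lack a DNA-binding region and hold other members inactive. Of 9 such genes, 6 passed, with 1 higher, 0 lower and 5 between. Hes1 read 1678 in synaptosomes and -469 in the hippocampus with D13417_g_at, at least 2.23-fold higher. Neither signal was clear, and without centring this bound is 1.98-fold, so the call ends. The companion design D13417_at read -1000 and -9583, the last a negative value larger in size than the noise spread of its array, which makes the Hes1 bound less certain. Hes3 had clear signals of 9577 and 7535 and a ratio of 0.52, and Hes5 read 2220 and 1499 with a ratio of 0.74. Neurod1 read 5141 and 5248, and Id2 read 4827 and 5232. Their ratios of 0.14 and 0.05 changed sign without centring, to -0.03 and -0.12. Neurod2 read 1383 and -863.

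POU factors of the class Pou3f are expressed in developing and adult brain. Pou3f3, or Brn1, read 2736 in synaptosomes and -1193 in the hippocampus, at least 3.64-fold higher. Pou3f2, or Brn2, read 1414 and 860, and Pou3f1 read 1809 and 1938. Pou3f4 read 2095 and 2912, a ratio of -0.30. Of the octamer-binding Pou2f genes, Pou2f1, or Oct1, read 1445 and 166 with U17013_at, a log2 ratio of at least 0.94. Pou2f3 read 732 and 1469 with L23863_at, a log2 ratio of at most -0.63. Of 10 POU genes 6 passed the filter, and their median was 0.48. No POU signal was clear of the noise spread.

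Forkhead factors were poorly covered by signal, since 10 of 18 had every probe set at the floor. Foxm1, a factor of dividing cells, read 4158 in synaptosomes and 1225 in the hippocampus, 3.82-fold higher. Only its synaptosome signal was clear, and even that signal was smaller than the noise spread of the hippocampus array. Neither the size nor the direction of the Foxm1 difference is therefore settled. With the higher floor its log2 ratio was 0.65, short of 2-fold. Foxd3, a factor of stem and neural crest cells, read 184 and 8520 with L13202_f_at, at least 8.95-fold lower and the lowest ratio of the 42. The other Foxd3 design on that sequence was at the floor on both arrays, and the suffix _f_ marks probe sets that share probes with related sequences, and cross-hybridisation was not tested. Foxk2 read 4297 and 2611 with a ratio of 0.89, and Foxo1, a target of insulin signalling, read 2084 and 2035. Foxn1, Foxs1 and Foxe1 had ratios of -0.36, -0.50 and -0.72 on signals within the noise.

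Klf9, a zinc finger factor induced by thyroid hormone and glucocorticoids, gave opposite answers with its designs. D12769_at read 13607 in synaptosomes and 55089 in the hippocampus, 3.60-fold lower. D12769_g_at, made from that same sequence, read 7026 and 5606, a log2 ratio of 0.50, and all of these signals were clear. The mean of both was -0.68, so the 2-fold call of Klf9 rests on the choice of the brighter probe set. Klf4 read 1024 and 1278. Cebpd, a leucine zipper factor of the acute-phase response, read 1257 and 3762 with 1 of its 3 probe sets, 2.66-fold lower, while the others were at the floor. Neither Cebpd signal was clear, and the Cebpd ratio was -0.34 with the higher floor, short of 2-fold. Stat5b, which carries growth hormone and prolactin signals, read 5347 and 7738, both clear, with a ratio of -0.36. Stat2 read 1395 and 1125.

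**Figure D3:**
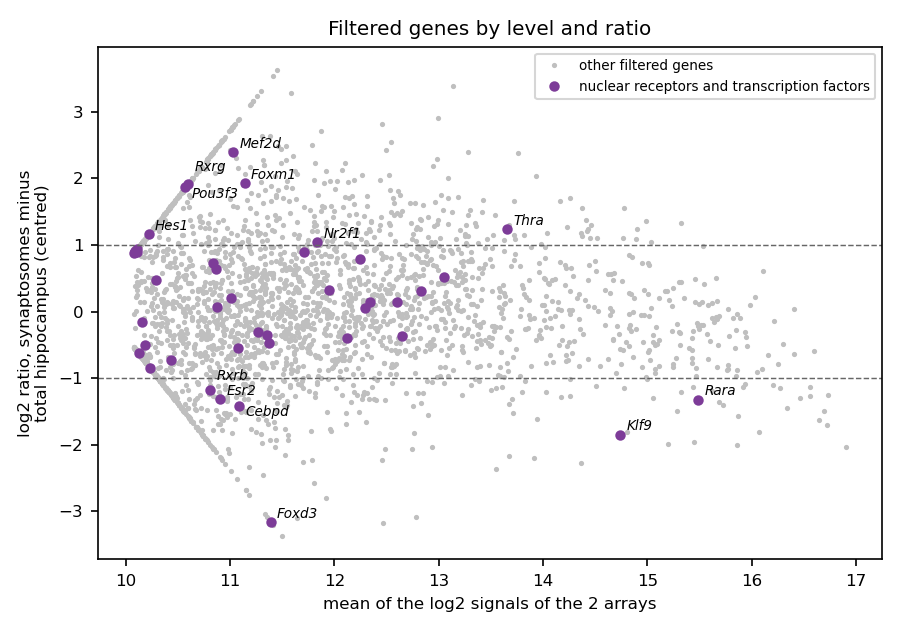
Centred log2 ratio against the mean log2 signal of the 2 arrays for all 2735 filtered genes (grey) and the 42 nuclear receptors and transcription factors (purple), with names on those past 2-fold, the dashed lines. The named genes lie inside the cloud of other genes, and the straight edges at left are bounds with an array at the floor.

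Probe sets of one gene could be compared for 9 of the 42 genes, Klf9, Nr1d1, Nr2f1, Nr3c2, Nr4a2, Nr4a3, Ppard, Rara and Thra. In 6 of the 9 all filtered probe sets had a single sign, beside 59.0% of the 658 such genes on the array. Only Thra, 1 gene, had all of its filtered probe sets past 2-fold upward, and only Rara, 1 gene, had all of them past 2-fold downward. Of the filtered Rara probe sets only U15211_at had clear signals, and U15211_g_at gave a bound. The SD between probe sets of a gene was 0.70 over these 9, and 0.90 over all such genes.

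Of the 11 genes above the floor but below the filter (Foxa1, Hes2, Id1, Id3, Nr1h2, Nr1h3, Nr2f2, Pparg, Sox10, Stat3 and Stat6), none had a signal above 1252 on its probe sets past the floor, and their log2 ratios ran from -0.39 to 0.74. Sox10, which marks oligodendrocytes and their precursors, read 918 in synaptosomes and -1058 in the hippocampus. No Sox gene passed the filter, and 3 of the 4 (Sox11, Sox13 and Sox17) had no signal above the floor. The other genes without such a signal were the receptors Esr1, Esrra, Nr0b1, Nr1d2, Nr1h4, Nr2c2, Nr5a1, Ppara, Rarb and Rxra, the POU factors Pou1f1, Pou2f2, Pou5f2 and Pou6f1, and the forkhead factors Foxa2, Foxa3, Foxc2, Foxd1, Foxd4, Foxe3, Foxi2, Foxj1, Foxn3 and Foxq1. They also included Klf6, Klf10, Klf13, Cebpa, Cebpb, Cebpe, Cebpg, Stat4 and Stat5a. For these 36 genes neither presence nor a difference was detectable at this signal.

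Genes that supply ligands, chaperone receptors or act with them were described from fixed lists. Of 16 ligand supply and binding genes on the array, 9 passed. Dio2, which makes the active thyroid hormone, read 3886 in synaptosomes and 1879 in the hippocampus, 2.33-fold higher, and Cyp27a1, a sterol hydroxylase, read 896 and 3165, 3.14-fold lower. Hsd11b1, which regenerates active glucocorticoid, read 13025 and 15277 with a ratio of -0.06. Dio3, which inactivates thyroid hormone, had a ratio of 0.29 with its filtered probe set and a bound of -0.35 with the other, below the filter. Ttr had a ratio of -0.57 with its brighter probe set, while the other filtered one read 876 and 5222, 5.30-fold lower. Of 4 receptor chaperones 2 were lower, Fkbp4 at 789 and 2396, at least 2.52-fold, and Stip1 at 1745 and 4483, 2.28-fold. Another Fkbp4 probe set, below the filter, read 1072 and 1021, a log2 ratio of 0.24. The major chaperone Hsp90ab1 read 50734 and 69053, a ratio of -0.27. Of 4 coregulators 3 passed, and Med1, a Mediator subunit that binds nuclear receptors, was at least 2.08-fold higher on signals of 1561 and -117. No signal of Cyp27a1, Fkbp4, Stip1 or Med1 was clear of the noise spread. Of 20 kinases and regulators of Creb, Mef2 and Stat factors 9 passed, and all 9 lay between 2-fold lower and 2-fold higher. The calcineurin subunit Ppp3ca, for example, read 44543 and 45236.

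Marker lists of the cells in the sample differed as follows. The nerve ending marker Syp read 39997 in synaptosomes and 27079 in the hippocampus, while Snap25 read 32782 and 109086, 2.96-fold lower, and was the only neuronal marker of 6 past 2-fold. The signals of the neuronal list summed to 105507 and 159837, lower in synaptosomes, with Snap25 the largest part of the hippocampus sum. The median log2 ratio of that list was 0.47, above 0. Syt1, Syp, Nefl and Nefm had ratios of 0.35, 0.73, 0.59 and 0.92, while Camk2a, at -0.22, and Snap25 lay below 0. Oligodendrocyte markers were at least 2-fold lower in 3 of 6 filtered genes and higher in 1, and their signals summed to 29296 and 49584. Vascular and blood markers were lower in 3 of 5, with sums of 13965 and 51562, and astrocyte markers were higher in 1 and lower in 1 of 7, with sums of 208142 and 218382. The filtered probe sets of the lower astrocyte gene, Slc1a2, differed in direction, with log2 ratios of -1.51, -0.77 and 1.24. Only 1 of 6 microglial genes passed, Aif1, with ratios of 0.98 for the brighter and 2.74 for the other of its filtered probe sets. The part of such shifts in the lower signals of Foxd3, Klf9, Cebpd, Rara, Esr2 and Rxrb was not tested.

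**Figure D4:**
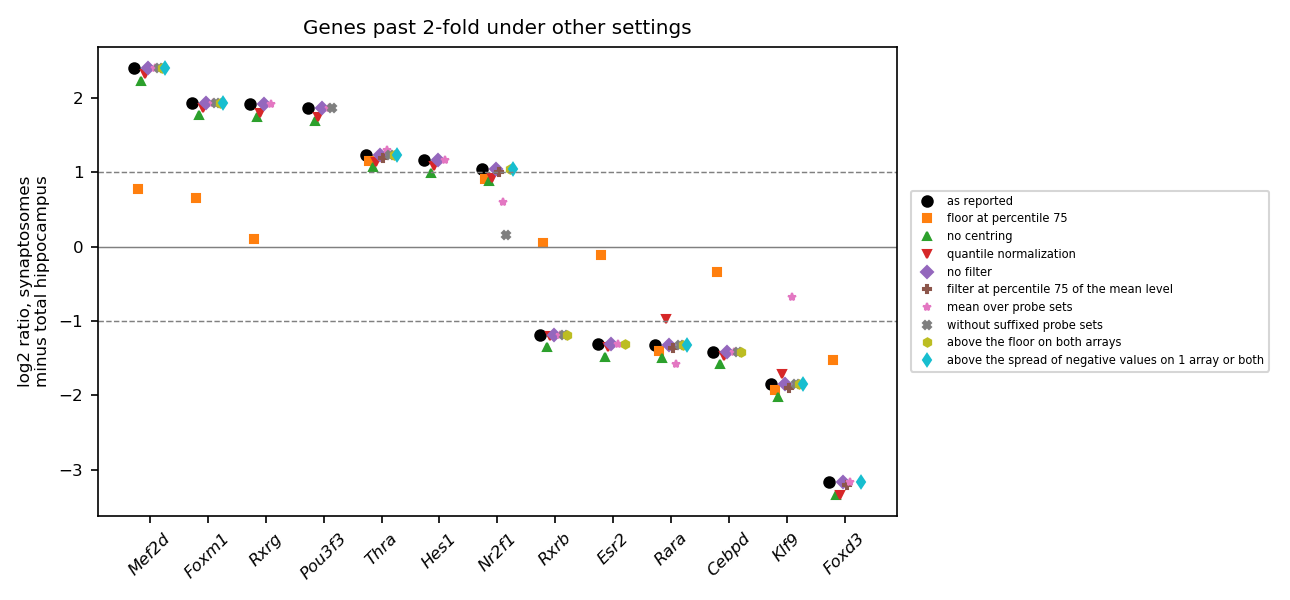
Log2 ratio of the 13 genes past 2-fold, as reported (black) and under the 9 other settings that gave a value, with dashed lines at 2-fold. Thra stayed above the upper line in all 9, while with the higher floor Mef2d, Foxm1, Rxrg, Nr2f1, Esr2 and Cebpd no longer reached 2-fold and Rxrb crossed 0.

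Without the centring, 5 of the 42 genes passed 2-fold upward and 7 downward in synaptosomes. Higher genes then made up 41.7% of those past the threshold, against 53.8% as reported. The same step moved this share over all filtered genes from 57.2% to 43.1%, so the swing is not particular to these families. With the floor at percentile 75 of all signals, 2799, Mef2d was at 0.77 and Foxm1 at 0.65, and with quantile normalization Rara was at -0.98. With a value in all 9 settings, Thra ran from 1.07 to 1.30.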

How the data were processed

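The authors deposited intensities on a linear scale for 8799 probe sets, including 59 controls, on 1 synaptosome and 1 total hippocampus array. The values are whole numbers, and 25.1% and 31.4% of the non-control values were negative. Per the labels' protocols, column-purified RNA was made into cDNA with the SMART kit and an oligo(dT)-T7 primer and transcribed to biotin-labelled cRNA, so amplification from the 3' end bears on every signal. The scanner software is not given in the sources used here. Means after removal of the lowest and highest 2% were 2504 and 2505, and no further scaling was applied.

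Values under the floor, percentile 50, were set to it before log2. Probe sets with a mean log2 level of at least 10.07, a signal of 1078, passed. The brightest filtered probe set stood for a gene. Gene names came from the platform annotation, and all 89 identifiers were found in RefSeq with 0 changed symbols. Genes were named where a probe set lay above the floor on an array, and folds are given for those past 2-fold. The number of arrays limits the precision. Members and lists were chosen with earlier results of these data known. Alternatives changed the floor, centring, scaling, filter and choice of probe sets. Steps were checked on simulated arrays. Tools were Python 3.11.15, NumPy 2.4.6, pandas 2.3.3 and matplotlib 3.10.9.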

Additional observations from a re-analysis of the deposited data

How the results depend on the processing

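Of the 13 genes past 2-fold, 12 kept their direction under every alternative that gave them a value, and 3 (Thra, Foxd3 and Pou3f3) also stayed past 2-fold, over 9, 7 and 5 alternatives. Some of these left the value exactly as reported and were no check of it. For Thra they were no filter, no suffixed probe sets, the floor on both arrays and the noise spread. For Foxd3 they were no filter, the mean over probe sets and the noise spread. For Pou3f3 they were no filter, that mean and no suffixed probe sets. Foxd3 had no value without suffixed probe sets or with probe sets above the floor on both arrays. Pou3f3 had none with the floor or the level filter at percentile 75, above the floor on both arrays, or above the noise spread. Those settings could therefore not check the respective gene. Rxrb reversed to 0.049 with the floor at percentile 75, a setting that left 24 genes. The count of higher genes, 7, became 1 with that floor, 2 with a level filter at percentile 75, and 4 with probe sets above the floor on both arrays. The count of lower genes, 6, became 3 with that floor and 3 with that filter. With probe sets above the noise spread on 1 array or both, an alternative chosen after seeing the data, the counts were 4 and 3. That spread was smaller on the synaptosome array, so this alternative does not weigh the 2 directions evenly. These settings left 17 to 32 genes. Over all genes the higher share, 19.1%, was 10.1%, 14.4% and 14.2% under the first 3 settings, and the lower share, 14.3%, was 7.91% with that floor and 11.5% with that filter. No centring, quantile normalization, no filter, the mean over probe sets and the omission of suffixed probe sets kept both counts within 1.5 times. No paired analysis was possible because each group had 1 array with no replicate number. Signal over background limits most values, since 25 of the 42 genes were clear of the noise spread on neither array.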
